A study of Papio anubis with 40 samples.

Results

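The very short 5′ fragments of 7 tRNAs in baboon serum were 16 to 24 nt long and began at the first base of the mature tRNA. They were chosen by length and by the first 6 characters of the fragment ID, a code that stands for the first 15 bases, and not by their levels, though with earlier results of these data known. Of the 58587 fragments with an ID, 353 met the rule, with 181346 counts over all libraries. By tRNA there were 122 for Val-AAC/CAC, 88 for Gly-CCC, 60 for Gly-GCC, 42 for Glu-TTC, 21 for Glu-CTC, 11 for Lys-CTT, and 8 and 1 for 2 starts named Lys-TTT. Most were rare: 81 had a single count, 157 had at most 3, while the valine fragment of 23 nt alone held 44908.

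Serum was drawn from 8 olive baboons (Papio anubis) at months 3, 6, 9 and 15 after menstrual tissue had been introduced into the abdomen at laparoscopy to give them endometriosis, and at month 0, before that inoculation. Each of the 40 libraries came from 0.5 mL of serum and carries the label "No treatment". The same animals gave all 5 draws, and serum of animals without inoculation was not analysed here, so inoculation cannot be told apart from time, age or handling. Ages are not given in the labels, and the table lists tRNA fragments but no cell marker genes, so the serum label was not checked against markers.

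tRNAs carry amino acids to the ribosome, and nucleases such as angiogenin cut them, usually in the anticodon loop, into large 5′ and 3′ pieces that circulate in blood bound to proteins or in vesicles. The large 5′ pieces of glycine, valine, glutamate and lysine tRNAs are among the most abundant small RNAs of mammalian serum. Shorter 5′ pieces end in or near the D loop, named for dihydrouridine, a modified base. The D loop holds a conserved pair of adjacent guanines that pairs with the T loop and holds the folded tRNA together. Some shorter 5′ pieces bind Argonaute proteins or interfere with translation in human cells.

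The longer fragments of each start show where the very short ones stop. They are the most abundant 30 to 36 nt fragments of the 4 starts with most very short counts and of Lys-CTT, given here 5′ to 3′ as deposited (T for U), with the guanine pair of the D loop in capitals.
Val-AAC/CAC, tRF-31-79MP9P9NH57SD: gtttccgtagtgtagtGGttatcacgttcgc
Gly-CCC, tRF-32-Q1Q89P9L8422Q: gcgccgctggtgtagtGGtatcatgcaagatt
Gly-GCC, tRF-30-P4R8YP9LON4V: gcatgggtggttcagtGGtagaattctcgc
Glu-TTC, tRF-31-86J8WPMN1E8Y0: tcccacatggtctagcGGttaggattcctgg
Lys-CTT, tRF-32-PSQP4PW3FJI01: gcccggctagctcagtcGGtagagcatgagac

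The very short fragments on which the results turn are the leading members of the 4 abundant starts, with a second length for each glycine start.
Val-AAC/CAC, tRF-23-79MP9P9NDD: gtttccgtagtgtagtGGttatc
Gly-CCC, tRF-18-Q1Q89P04: gcgccgctggtgtagtGG
Gly-CCC, tRF-20-Q1Q89P9L: gcgccgctggtgtagtGGta
Gly-GCC, tRF-22-P4R8YP9LL: gcatgggtggttcagtGGtaga
Gly-GCC, tRF-24-P4R8YP9LH7: gcatgggtggttcagtGGtagaat
Glu-TTC, tRF-18-86J8WPD4: tcccacatggtctagcGG

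Anticodons were read in longer fragments with the same first 15 bases. Fragments of the valine start that reached the anticodon read CAC in 59.1% of 6621 counts, GAC in 33.7% and CCC in 4.89%. AAC, part of the name of the start, was not among these leading triplets. The Gly-CCC start read CCC in 99.9% of 9115. Gly-GCC, both glutamate starts and Lys-CTT read the named anticodon in at least 99.6%. No longer fragment reached the anticodon for either Lys-TTT start, so these starts are named here by their codes PYRP4P and PSRP4P. Another lysine start, code PS5P4P, read TTT in 13 of the 14 counts that reached the anticodon. It had 5758628 counts, of which 53 fragments and 4840 counts were 16 to 24 nt long and lie outside the rule.

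The counts stopped at few positions, and the positions differed between tRNAs. Glu-TTC ended mostly at 18 nt, which held 80.3% of its very short counts (53.1 to 90.9% over the 39 libraries with at least 20 counts, median 84.1%). The last base at 18 nt is the second guanine of the D loop pair. Val-AAC/CAC ended mostly at 23 nt, with 63.4% of its counts (38.8 to 76.7% over 40 libraries), and 18 nt was second with 14.01%. Gly-GCC had no single end: 22 nt held 33.6%, 24 nt 24.8% and 23 nt 20.01%, and 18 nt only 7.41%.

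Gly-CCC had 2 main ends, at 20 nt with 33.9% of counts and at 18 nt with 33.1%. The 20 nt share was 13.7 to 52.5% over libraries with a median of 44.1%, while the 18 nt share was 7.62 to 69.8% with a median of 13.0%, so the pooled 18 nt share came from few libraries. Glu-CTC, with only 643 counts, leaned to 24 nt (61.1%) and 23 nt (25.97%). Lys-CTT, with 183 counts, leaned to 16 nt (51.4%). Both are far fewer counts than the 18374 of Glu-TTC.

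**Figure D1:**
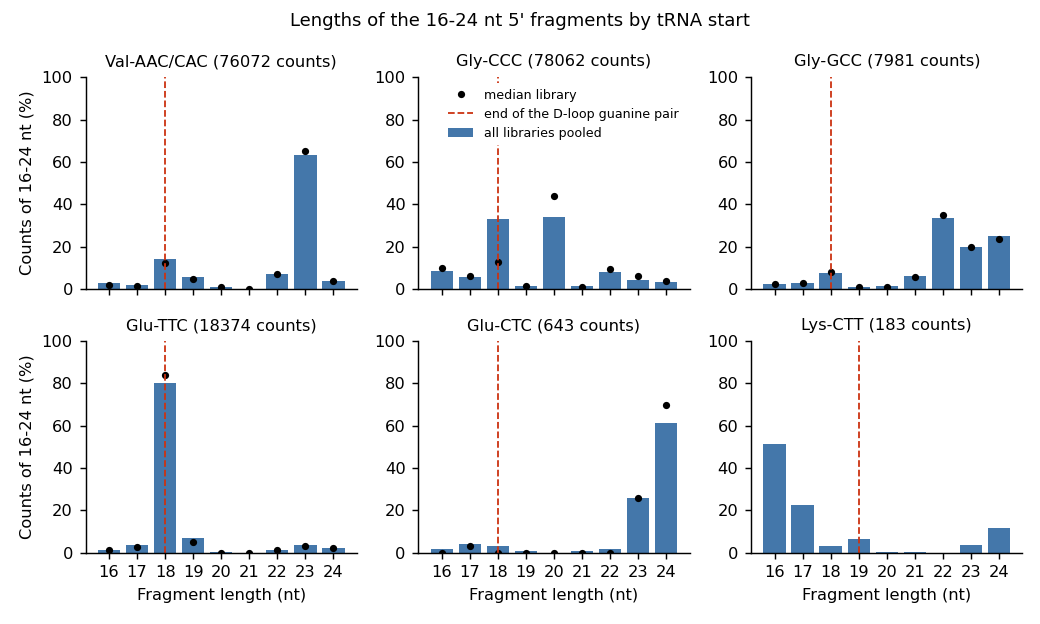
Percent of the 16 to 24 nt counts of each tRNA start (vertical axis) at each fragment length in nt (horizontal axis). Bars pool all 40 libraries, points are the median over libraries with at least 20 counts (not drawn for Lys-CTT), and the dashed line marks the end of the D loop guanine pair; Glu-TTC stands at 18 nt with 80.3%, Val-AAC/CAC at 23 nt with 63.4%, and Gly-CCC is split between 20 and 18 nt.

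Measured from the guanine pair, 30.04% of the counts whose sequence equals the start of the main longer fragment ended exactly at its second guanine, 29.6% ended 5 bases after it and 15.4% ended 2 bases after it. These pooled ends were not shared evenly by the tRNAs. Valine held 44908 of the 50746 counts at 5 bases, and Gly-CCC 25992 of the 26392 at 2 bases. At the second guanine, Gly-CCC held 25688 of 51493 counts, Glu-TTC 14654 and valine 10521. A cut at such an end would also leave a piece that begins at the next base. For the valine and 2 glycine starts, fragments that begin with the 8 to 10 bases after the 24 ends that could be searched held 171 counts in all, against 146869 counts that ended there, and no single position had more than 38. The glutamate starts share the 10 bases after position 16, where 40 fragments with 1536 counts began, against 274 Glu-TTC and 12 Glu-CTC counts that ended there. After position 18 of the glutamate starts no fragment began. For Lys-CTT more counts began than ended: 1645, 1267 and 2091 began after positions 16, 17 and 18, against 91, 37 and 6 that ended there. The counts after positions 16 and 17 were the same for the other lysine starts, so they cannot be assigned to Lys-CTT alone. A piece that begins at the next base could also have fallen outside the sizes or ends that the library captured, which was not tested.

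Nearly all very short counts were exact starts of the longer fragment. The 61 exact members held 94.5% of counts, 71 members that differ only in the last base held 1.82%, 189 with 1 other base changed held 3.55%, and 32 with several changes, all of valine, held 0.108%. Valine had the most varied sequences: exact members held 88.9% of its very short counts, against 97.6% in Gly-GCC, 98.6% in Gly-CCC and 99.1% in Glu-TTC. One change, T16C (T in the main valine fragment, C in the variant, positions counted from 1 at the 5′ end), was in 36 valine members with 5315 counts, 6.99% of that start's very short counts. It was also in valine fragments of 25 to 36 nt, with 8.28% of their counts. Whether T16C marks another valine tRNA gene, a modified base or a read error was not tested. The member that carries it at 23 nt differs from the one above at the base in capitals.
Val-AAC/CAC with T16C, tRF-23-79MP9PMNDD: gtttccgtagtgtagCggttatc

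Very short fragments were a small share of what each start gave. They made up 0.156% of the 116261756 counts of the 8 starts. Of each start's own counts, 16 to 24 nt fragments made up 3.34% for Glu-TTC, 0.195% for Gly-GCC, 0.158% for Gly-CCC, 0.141% for Val-AAC/CAC, 0.131% for PSRP4P, 0.0261% for Lys-CTT, 0.00886% for Glu-CTC and 0.00221% for PYRP4P. Per library, Glu-TTC ranged from 0.737 to 15.7% (median 4.05%, 40 libraries) and Glu-CTC from 0 to 0.0404% (median 0.00879%), so the ranges of the 2 glutamate starts over the 40 libraries did not overlap. Gly-GCC ranged from 0.0717 to 0.945% and Gly-CCC from 0.0588 to 0.680%, ranges that overlapped over most of their width. The lysine starts were near the limit of detection: PSRP4P had 30 very short counts, the most abundant being tRF-19-PSRP4PJ4 with 7, and PYRP4P had the single count of tRF-23-PYRP4PW3X. The leading Lys-CTT member, tRF-16-PSQP4PE, had 91 counts and was seen in 24 libraries.

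The rule's upper length bound lay in a trough of the length profile pooled over the 8 starts. At 23 nt they had 54162 counts, of which valine held 48192. At 24 nt, just inside, they had 66 fragments with 8407 counts, and at 25 nt, just outside, 117 fragments with 38857 counts. For valine the step was 2989 counts at 24 nt and 15463 at 25 nt, whereas Glu-CTC had 393 and 176. For Gly-GCC counts rose across the bound, from 1597 at 23 nt to 1980 at 24 nt and 11825 at 25 nt.

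The libraries held 198840 to 6245450 counts, and 289 to 23306 of them were very short 5′ fragments. A count of 0 allows up to 3 counts, which was 0.568 to 7.82 CPM (counts scaled to a common library size) depending on the library. The month 0 library of PA8001 was the shallowest. At month 15 the library of PA8003 had a TMM scaling factor of 0.458, against 0.966 to 1.38 in the other 7. It and that of PA8001 had the highest very short shares of all month 15 libraries. Calls of very short fragments and of their sums are given with and without them, as counts or values. Intervals and floors cover counting error only, because it is not stated whether the molecular identifiers in the libraries were used to collapse reads.

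As a share of library counts, very short 5′ fragments had their highest mean at month 15. The mean was 0.147% ± 0.0664 at month 0, 0.135% ± 0.0719 at month 3, 0.111% ± 0.0456 at month 6, 0.119% ± 0.0816 at month 9 and 0.257% ± 0.155 at month 15 (SD, n = 8 each). The lowest, median and highest library were 0.135, 0.194 and 0.606% at month 15, against 0.0652, 0.141 and 0.246% at month 0, and the 2 groups overlapped. The share was higher at month 15 than at month 0 in 7 of 8 animals and lower in PA8872, and no test was run on it. PA8003 at month 15 was the highest of all libraries, at 0.606% (95% Wilson interval 0.598 to 0.613%). Without it the month 15 mean was 0.207% ± 0.0691 (n = 7), and without PA8001 as well 0.188% ± 0.0509 (n = 6), still above the other months. Other fragments of 16 to 24 nt also had their highest mean share at month 15, 0.676% ± 0.212 against 0.531% ± 0.137 at month 0 (SD, n = 8 each). Serum is a bulk sample, so more cells that shed fragments and more fragments per cell cannot be told apart.

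**Figure D2:**
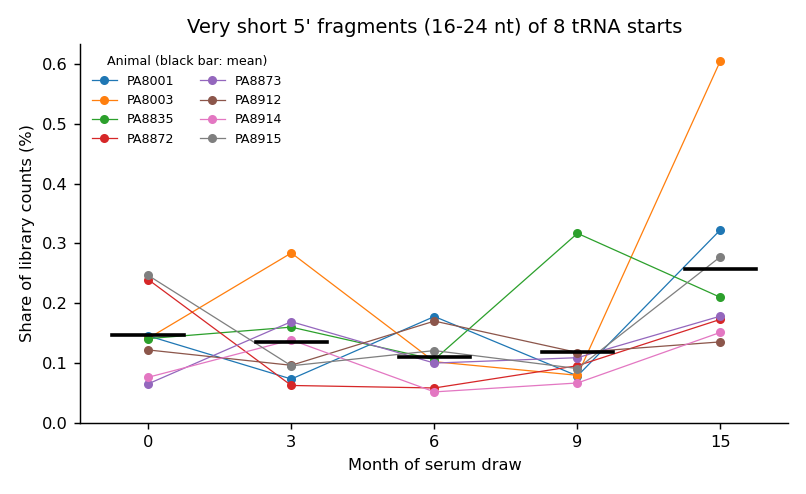
Share of library counts in percent (vertical axis) held by the 16 to 24 nt 5′ fragments of the 8 starts, by month of serum draw (horizontal axis, evenly spaced). Each line is 1 of 8 animals and black bars are means; month 15 has the highest mean, 0.257%, and PA8003 reaches 0.606% there.

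The question posed by the design is which fragments changed after inoculation relative to month 0. Of the 353 very short fragments, 38 had enough counts to be tested, and these held 97.3% of the very short counts. The 38 were 15 of valine, 9 of Gly-CCC, 7 of Glu-TTC, 6 of Gly-GCC and 1 of Glu-CTC. The remaining members were too rare to be tested one by one. All p-values come from edgeR's quasi-likelihood test with animal as a block and are adjusted by Benjamini and Hochberg over all 2447 tested fragments. None of the 38 passed an adjusted p of 0.05 at months 3, 6 or 9 against month 0, where 0% of all fragments passed, and DESeq2 called none either. At an unadjusted p under 0.05 there were 0, 6 and 3 such members. Counts at an unadjusted p or by DESeq2, here and below, have no share over all fragments beside them and are a description only. The median log2 difference of the 38 was 0.03 at month 3, -0.42 at month 6 and -0.26 at month 9, beside 0.10, 0.01 and 0.06 over all tested fragments.

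Members with the smallest p in those months did not pass. At month 3 they were the Glu-TTC fragments tRF-16-86J8WPD and tRF-17-86J8WPK, with log2 differences of -0.93 and -0.79, and the valine T16C fragments tRF-16-79MP9PD, tRF-19-79MP9P1Z and tRF-22-79MP9PMNI, with 0.55, 0.58 and 0.47, all at an adjusted p of 0.999. At month 6 they were tRF-16-79MP9PE (log2 -1.58 ± 0.600 SE, adjusted p 0.337), tRF-17-79MP9PK, tRF-22-Q1Q89P9L5, tRF-17-Q1Q89PP and tRF-23-79MP9PMNDD, all with values below 0. The 2 Gly-CCC fragments among them, tRF-22-Q1Q89P9L5 and tRF-17-Q1Q89PP, were lower at month 6 than at month 0 in 8 of 8 animals, with adjusted p of 0.350 and 0.370. At month 9 tRF-19-79MP9P1Z had a log2 of 1.14 ± 0.494 (SE, adjusted p 0.582, higher in 8 of 8 animals), and tRF-17-79MP9PP, tRF-16-79MP9PE, tRF-16-86J8WPD and tRF-17-86J8WPK were between -1.65 and -1.14. The medians of tRF-19-79MP9P1Z were 1.89 CPM at month 9 and 0.715 CPM at month 0, where 3 counts were a median of 1.00 CPM over libraries.

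At month 15 against month 0 none of the 38 passed, although 36 of 38 had a positive log2 difference, with a median of 0.66 against 0.05 over all tested fragments. Over all fragments 2.21% were called higher. At an unadjusted p under 0.05 there were 11 members, and DESeq2 called 3, counts without a share over all fragments beside them. The smallest adjusted p was 0.0554, for tRF-21-P4R8YP9L0 of Gly-GCC, with a log2 of 2.09 ± 0.613 (SE). It had 2.12, 8.12 and 19.8 CPM (lowest, median, highest) at month 15, against 0, 1.78 and 7.03 CPM at month 0, and the 2 groups overlapped. Next came tRF-24-P4R8YP9LH7 (log2 1.64, adjusted p 0.0854), tRF-18-79MP9P04 of valine (1.57, adjusted p 0.0869, higher in 8 of 8 animals), tRF-23-P4R8YP9LD6 (1.29, adjusted p 0.113) and tRF-19-79MP9P1Z (1.40, adjusted p 0.124). With the PA8001 and PA8003 libraries of month 15 left out, 30 of 41 tested members were positive and their median was 0.25.

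Against the months in between, most tested members had positive log2 differences at month 15, and those that passed were all higher. At month 15 against month 3 none passed (8 at an unadjusted p under 0.05, 2 by DESeq2; 7.19% of all fragments were called higher), with a median log2 of 0.68. The smallest p there belonged to tRF-21-P4R8YP9L0 (log2 1.65), tRF-19-79MP9PJZ (1.08), tRF-23-P4R8YP9LD6 (1.07), tRF-24-P4R8YP9LH7 (1.22) and tRF-22-P4R8YP9LL (0.76), with adjusted p between 0.0570 and 0.114. At month 15 against month 6, 18 of 38 passed, when 17% of all fragments were called higher, and at month 15 against month 9, 15 of 38 passed, when 18.2% were. Of these, 10 passed in both. With the PA8001 and PA8003 libraries of month 15 left out none passed in either comparison (11 and 9 at an unadjusted p under 0.05). With only that of PA8001 left out 12 and 4 passed, with only that of PA8003 left out 12 and 6, with animal PA8003 left out at every month 9 and 3, and with animal PA8001, PA8915 or PA8914 left out 6, 6 and 8 against month 9.

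The largest rises against month 6 were tRF-21-Q1Q89P9LE of Gly-CCC (log2 2.32 ± 0.730 SE, adjusted p 0.0189), tRF-24-P4R8YP9LH7 (2.05, adjusted p 0.00689), tRF-16-79MP9PE (1.93, adjusted p 0.0172), tRF-21-P4R8YP9L0 (1.89, adjusted p 0.0198) and tRF-19-79MP9P1Z (1.82, adjusted p 0.00984). Against month 9 they were tRF-21-P4R8YP9L0 (2.50 ± 0.622 SE, adjusted p 0.0102), tRF-24-P4R8YP9LH7 (2.26, adjusted p 0.00788), tRF-17-79MP9PP (1.94, adjusted p 0.0338), tRF-23-P4R8YP9LD6 (1.62, adjusted p 0.0120) and tRF-16-79MP9PE (1.59, adjusted p 0.0401). These comparisons share the month 15 libraries, so they are not independent of each other. Levels in the earlier months were low. In the order named, the month 6 medians were 2.32, 8.02, 1.86, 2.59 and 0.740 CPM. The month 9 medians were 1.43, 7.24, 1.85, 8.62 and 1.10 CPM. A level of 3 counts was a median of 1.00 CPM over libraries, so several of these rises are over few counts.

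**Figure D3:**
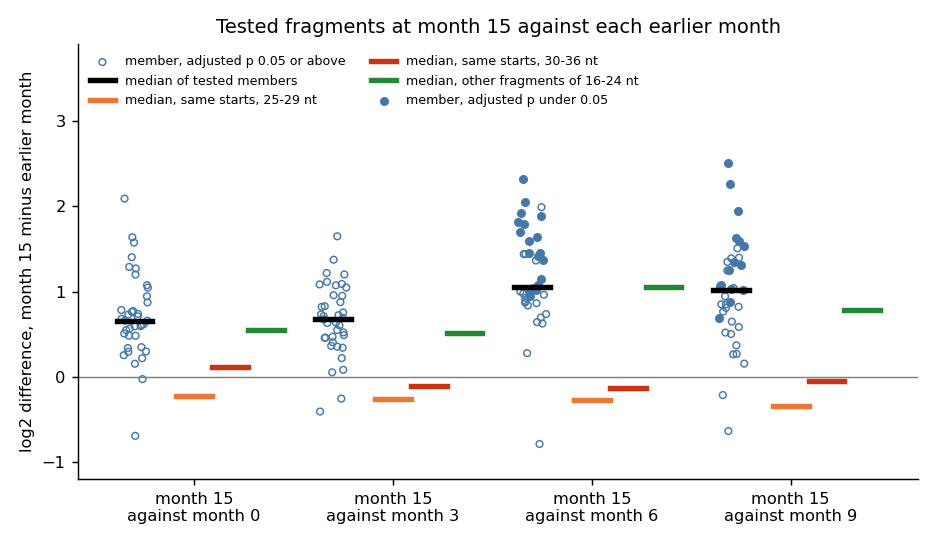
log2 difference of each of the 38 tested members, month 15 minus the earlier month (vertical axis), for the 4 comparisons (horizontal axis). Circles are members, filled where the adjusted p was under 0.05; bars are medians of the members and of 3 other lists. Members lie mostly above 0, with 18 filled against month 6 and 15 against month 9, fragments of 25 to 29 and 30 to 36 nt from the same starts have medians between -0.34 and 0.12, and other fragments of 16 to 24 nt have medians above 0.

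Other short fragments had medians above 0 at month 15, and fragments of 25 to 36 nt from the same starts had medians between -0.34 and 0.12. Against month 0, the 186 tested fragments of 25 to 29 nt from the 8 starts had a median log2 of -0.22 and the 547 of 30 to 36 nt 0.12, beside 0.66 for the members. Against month 6 the medians were -0.27 and -0.12, beside 1.06. The 264 other tested fragments of 16 to 24 nt had medians of 0.55 against month 0 and 1.06 against month 6, close to those of the members, so the shift is not shown to be particular to these tRNA starts. With the PA8001 and PA8003 libraries of month 15 left out, the medians were 0.25 for the members and 0.13 for the other short fragments against month 0, and 0.77 and 0.66 against month 6. Longer classes were not uniform. The sums of 37 nt or more had log2 differences against month 0 of 1.94 for Lys-CTT (adjusted p 0.00403, higher in 8 of 8 animals), 1.48 for Glu-TTC, 1.32 for Gly-GCC, 1.15 for valine, 1.11 for Glu-CTC and 0.31 for Gly-CCC, and of these only Lys-CTT passed. Among the 30 to 36 nt sums PYRP4P passed against month 0 (log2 1.33, adjusted p 0.0294, higher in 7 of 8 animals) and Gly-CCC against month 6 (1.13, adjusted p 0.00895, higher in 6 of 8 animals). In both, the highest month 15 library was that of PA8003. It had 3409 CPM for PYRP4P beside a median of 440, and 1326290 CPM for Gly-CCC beside a median of 178036. For these longer sums no values without that library are given. Of the 264 other short fragments, 102 were called higher and 9 lower against month 6.

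A joint test asked whether any of the 5 months differed. It passed for 6 of 38 members, a share no higher than the 16.2% of all fragments that passed. The 6 members were tRF-24-P4R8YP9LH7, tRF-22-P4R8YP9LL, tRF-21-P4R8YP9L0 and tRF-23-P4R8YP9LD6 of Gly-GCC (adjusted p 0.0163 to 0.0270), and tRF-19-79MP9P1Z and tRF-19-79MP9PJZ of valine (adjusted p 0.0340 and 0.0430). None passed without the month 15 library of PA8003, with or without that of PA8001, and 1 passed without that of PA8001 alone. With animal PA8003 left out at every month none passed, and with PA8873 left out 2 members passed, of which 1 was among the 6.

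Gly-GCC carried the clearest month 15 difference. Its summed very short level had a lowest, median and highest library of 59.5, 108 and 297 CPM at month 15, against 15.6, 52.4 and 87.01 CPM at month 0. The mean was 125 ± 78.3 CPM at month 15 and 50.8 ± 22.3 CPM at month 0 (SD, n = 8 each), and the ranges overlapped. The lowest month 0 value was that of PA8001, the shallowest library, where 3 counts were 7.82 CPM. Counts were summed per start and length class, 909 such sums over all starts were tested by edgeR, and the Gly-GCC sum rose by a log2 of 1.41 ± 0.372 (SE, adjusted p 0.0173, higher in 8 of 8 animals), when 5.06% of the sums were called higher. No other very short sum passed against month 0, and none passed at month 3, 6 or 9, where 0% of all sums passed. The call was lost without either of 2 month 15 libraries. Without that of PA8003 the log2 was 1.17 (adjusted p 0.0715), without that of PA8001 0.98 (adjusted p 0.0972), and without both 0.62 (adjusted p 0.414). The call was also lost with animal PA8914 left out (1.47, adjusted p 0.0626), with animal PA8001 left out (0.98, adjusted p 0.0769) and with PA8003 left out (1.08, adjusted p 0.142).

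Against the months in between, the Gly-GCC sum had medians of 57.1 CPM at month 3, 44.3 CPM at month 6 and 37.0 CPM at month 9. It was higher at month 15 than at month 6 by a log2 of 1.69 ± 0.373 (SE, adjusted p 0.00367) and than at month 9 by 1.71 ± 0.370 (adjusted p 0.00635), each in 8 of 8 animals, when 16.3 and 14.6% of all sums were called higher. Without both month 15 libraries these were 0.89 (adjusted p 0.101) and 0.85 (adjusted p 0.152). Against month 3 the log2 was 1.06 (adjusted p 0.0786), when 2.2% of sums were called higher. The leading member, tRF-22-P4R8YP9LL, had 18.8, 30.6 and 94.8 CPM at month 15, against 11.6, 15.5 and 29.8 CPM at month 0, and was higher in 8 of 8 animals (log2 0.95 ± 0.336 SE, adjusted p 0.124).

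**Figure D4:**
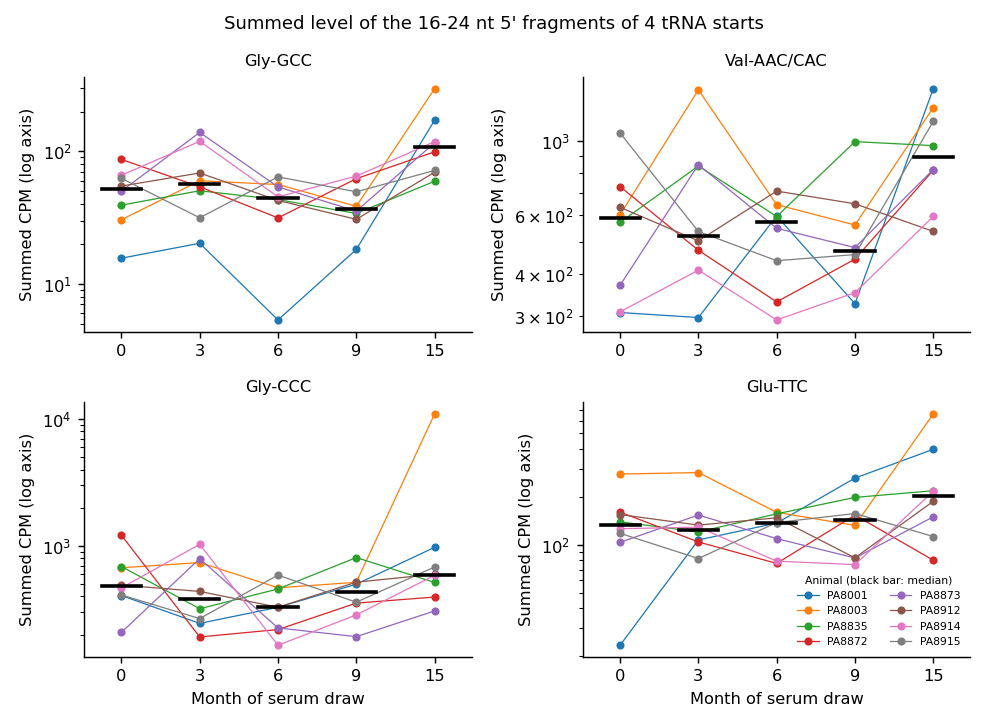
Summed CPM of the 16 to 24 nt fragments (vertical axes, log scale) of 4 tRNA starts by month of serum draw (horizontal axes, evenly spaced). Each line is 1 of 8 animals and black bars are medians; for Gly-GCC all 8 animals are higher at month 15 than at month 0, and for Gly-CCC PA8003 reaches 10996 CPM at month 15.

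The valine sum passed against months 6 and 9 and not against months 0 and 3. The lowest, median and highest library were 537, 893 and 1428 CPM at month 15, against 307, 586 and 1054 CPM at month 0, with overlap and 7 of 8 animals higher (log2 0.75 ± 0.262 SE, adjusted p 0.0953). The sum was higher than at month 6 (log2 0.88, adjusted p 0.0173) and at month 9 (0.86, adjusted p 0.0253), and against month 3 it did not pass (0.58, adjusted p 0.143). With the PA8001 library of month 15 left out neither passed (0.65, adjusted p 0.0825, and 0.67, adjusted p 0.0781), nor with library totals in place of TMM (0.82, adjusted p 0.112, and 0.90, adjusted p 0.0865). The call against month 9 was also lost with animal PA8001 (0.67, adjusted p 0.0736), PA8003 (0.87, adjusted p 0.0769) or PA8873 (0.87, adjusted p 0.0524) left out. The leading member, tRF-23-79MP9P9NDD, had 249, 479 and 747 CPM at month 15, against 193, 324 and 713 CPM at month 0 (log2 0.48 ± 0.245 SE, adjusted p 0.252), so its groups overlapped over most of their range. The 18 nt member tRF-18-79MP9P04 had 39.1, 159 and 356 CPM at month 15, against 0, 58.3 and 109 CPM at month 0. The value of 0 was that of PA8001, the shallowest library, where 3 counts were 7.82 CPM. As a share of the valine very short counts, 18 nt averaged 19.6% ± 12.4 at month 15 and 9.51% ± 5.14 at month 0, and 23 nt 56.3% ± 12.8 at month 15 and 67.3% ± 6.46 at month 0 (SD, n = 8 each), and the 23 nt share was lower at month 15 in 7 of 8 animals. The lowest 18 nt share at month 0 was 0%, in the same PA8001 library. These length shares were not tested.

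The Gly-CCC sum at month 15 was led by 1 library. Its sum had 307, 593 and 10996 CPM at month 15, against 208, 479 and 1215 CPM at month 0, and the difference did not pass (log2 0.82 ± 0.504 SE, adjusted p 0.331). With the PA8001 and PA8003 libraries of month 15 left out it was -0.11, and without PA8003 alone 0.09. Without the animal block it was 1.72 (adjusted p 0.0472). Against month 6 the sum passed (log2 1.55 ± 0.498 SE, adjusted p 0.0252, higher in 8 of 8 animals) and against month 9 it did not (1.21, adjusted p 0.0668). The call against month 6 was lost without the month 15 library of PA8003 (0.80, adjusted p 0.134), without that of PA8001 (1.49, adjusted p 0.0535) and with animal PA8003 left out (0.87, adjusted p 0.148). The 18 nt member tRF-18-Q1Q89P04 was high in 1 library of each month, a different animal each time: 706 CPM at month 0 in PA8872, 486 at month 3 in PA8914, 276 at month 6 in PA8915, 390 at month 9 in PA8835 and 7642 at month 15 in PA8003. The medians of those months were 52.5, 47.9, 37.0, 49.6 and 94.1 CPM. Its log2 at month 15 against month 0 was 1.27 ± 1.11 (SE, adjusted p 0.496), and -0.06 without the month 15 library of PA8003.

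The 20 nt Gly-CCC member tRF-20-Q1Q89P9L varied less, with 130, 247 and 1498 CPM at month 15 against 84.6, 219 and 291 CPM at month 0 (log2 0.61 ± 0.313 SE, adjusted p 0.256). The leading Gly-CCC members at other lengths did not pass against month 0 either. tRF-16-Q1Q89PE, tRF-17-Q1Q89PP, tRF-22-Q1Q89P9L5 and tRF-24-Q1Q89P9LJI had medians of 62.3, 41.1, 56.5 and 24.6 CPM at month 15 and of 55.5, 32.0, 41.8 and 18.6 CPM at month 0, with adjusted p of 0.356 to 0.483. Each of these 5 passed against month 6, at log2 differences between 1.08 and 1.79. In each the highest month 15 library was that of PA8003.

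Neither glutamate sum passed in any comparison, and 1 glutamate fragment passed in 1 comparison. The Glu-TTC sum had 80.1, 202 and 662 CPM at month 15, against 23.5, 133 and 278 CPM at month 0 (log2 0.71 ± 0.319 SE, adjusted p 0.194, higher in 6 of 8 animals). Its 18 nt member tRF-18-86J8WPD4 had 61.3, 175 and 519 CPM at month 15, against 15.6, 92.6 and 217 CPM at month 0 (log2 0.74 ± 0.318 SE, adjusted p 0.192). The fragment that passed was tRF-24-86J8WPMNEX of Glu-TTC, higher at month 15 than at month 9 in 8 of 8 animals (log2 1.53 ± 0.523 SE, adjusted p 0.0270). The Glu-CTC sum stayed low, with medians of 5.44 CPM at month 15 and 3.85 CPM at month 0 (log2 0.19, adjusted p 0.838). Its only tested member, tRF-24-87R8WP9NEX, had 0, 1.05 and 4.98 CPM at month 15, against 0, 1.75 and 9.55 CPM at month 0 (log2 -0.69, adjusted p 0.495), the lowest value of the 38. Very short Lys-CTT fragments averaged 4.12 ± 3.30 CPM at month 15 and 1.43 ± 1.25 CPM at month 0 (SD, n = 8 each), with ranges that overlapped, and were too few to be tested alone.

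The very short sum was set against the 25 to 36 nt sum of the same start in the same library as a log2 ratio, tested by an exact two-sided sign-flip test over the 8 animals. The smallest p this test can give is 0.00781, and 32 ratios were tested. A ratio at that p could not pass alone after adjustment over the 32, so several had to be low together. PYRP4P had a single very short count, so its ratios rest on the pseudocount. None passed after adjustment, and 2 had an exact p under 0.05 before it. With so few animals, the lack of a call cannot show that a ratio was unchanged. For valine the ratio averaged -8.30 at month 15 and -9.14 at month 0, a difference of 0.83 ± 0.863 (SD, n = 8), higher in 7 of 8 animals (exact p = 0.0234, adjusted p 0.357). For Gly-GCC it averaged -7.94 at month 15 and -8.74 at month 0, higher in 6 of 8 animals (exact p = 0.0547, adjusted p 0.357), and for Glu-TTC -4.13 and -4.91 (exact p = 0.188, adjusted p 0.500). The Gly-GCC ratio at month 6 was lower than at month 0 in 7 of 8 animals (exact p = 0.0469, adjusted p 0.357). Of 24 further ratios of month 15 against months 3, 6 and 9, none passed and the smallest adjusted p was 0.0536, shared by 7 of them. Among these, the valine ratio was higher than at month 3 in 8 of 8 animals by 1.20 ± 1.09 (SD, n = 8, exact p = 0.00781). The Lys-CTT ratio was higher than at month 6 in 8 of 8 animals by 2.41 ± 1.97 (SD, n = 8, exact p = 0.00781), though Lys-CTT had only 183 very short counts.

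By length, calls at month 15 against month 6 were 2 of 4 tested members at 16 nt, 2 of 5 at 17 nt, 3 of 4 at 19 nt, 1 of 2 at 20 nt, 2 of 2 at 21 nt, 3 of 5 at 22 nt, 2 of 6 at 23 nt and 3 of 6 at 24 nt, and 0 of 4 at 18 nt, beside 17% of all fragments called higher. The 4 members of 18 nt had a median log2 of 0.98 there, beside 1.06 for the 38. Their smallest adjusted p was 0.0765, and 2 had an unadjusted p under 0.05. At month 15 against month 9 the 18 nt count was 1 of 4, beside 18.2% of all fragments. By tRNA, the same comparison with month 6 called 7 of 9 Gly-CCC, 4 of 6 Gly-GCC, 7 of 15 valine and 0 of 7 Glu-TTC members, beside the same 17% (3 of those 7 at an unadjusted p under 0.05).

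Over the 40 libraries, the fragments whose log2 CPM was most like that of tRF-23-79MP9P9NDD were tRF-25-79MP9P9NH5 (Pearson r 0.854), tRF-26-79MP9P9NH50 (0.828) and tRF-25-79MP9P9NHR (0.811). All 3 begin with the same 15 bases and lie 2 or 3 nt beyond it in length. They share the libraries, depth and scaling with it, so the correlations are a description.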

How the data were processed

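Fragments of tRNA in the serum of 8 baboons were measured at 5 draws. The deposited table gives counts per fragment and library, whole numbers without scaling, with each fragment's sequence. Per the labels' protocols, both RNA ends received adapters, reverse transcription added molecular identifiers, and RNA integrity numbers of 7 or more were required. No aligner, tRNA reference or collapsing by identifier is stated. The submitters' processing notes list R 4.5.0 along with edgeR and limma, and give none of them a role.

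Of 60201 lines, 1614 had no ID, each with an unread base (0.0805% of counts), and were left out. Fragments were kept by edgeR's filterByExpr at its minimum count of 10, which left 2447. The main test was edgeR 4.0.16 in R 4.3.3, a quasi-likelihood fit (robust) with terms for animal and month over all 40 libraries after TMM scaling, two-sided, with Benjamini-Hochberg adjustment at 0.05. SE is the absolute log2 difference over the root of F. CPM were computed on the TMM-scaled total. Sums per first 15 bases and length class were fitted in the same way. Ratios used a pseudocount of 0.5. The fragment fit was tried on counts simulated with a single spread for all fragments, and without animal effects or outlying libraries. Only month 15 against month 0 was checked there, and sums and the joint test were not.

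The same animals were drawn at each month, so animal numbers pair the libraries: deviations from month means correlated at a mean of 0.187 within animals and -0.0247 between them. The members and lists were chosen with earlier results of these data known. Named fragments were the most abundant member, by mean CPM, of each start and length, every member past the threshold where at most 10 were, otherwise the 5 largest rises, and the 5 smallest p-values where under 3 passed. Month 15 sums and ratios against months 3, 6 and 9, and leaving out single month 15 libraries, were added after the data were seen. Alternatives were 2 other scalings, 3 other filters, no animal block, DESeq2 1.42.0, and left-out libraries and animals.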

Additional observations from a re-analysis of the deposited data

Results flagged for a closer look

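A library was picked out where its gap to the next of the 8 libraries of its month was more than 0.526 of that month's range. There were 31 such values in 160 groups of 8, and 12 of the 31 were in the month 15 library of PA8003. For normally distributed values this limit would pick out about 5% of groups, a condition not tested for these values, and sums hold the counts of their members, so 5% is not a chance rate for the 160.

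The 18 nt Gly-CCC fragment tRF-18-Q1Q89P04 stood apart in 1 library of every month, in 5 different animals. It was at 706 CPM in PA8872 at month 0, 486 in PA8914 at month 3, 276 in PA8915 at month 6, 390 in PA8835 at month 9 and 7642 in PA8003 at month 15.

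In the month 15 library of PA8003 the very short share of library counts was 0.606%, and the summed levels were 11000 CPM for Gly-CCC and 297 CPM for Gly-GCC. Its other high fragments of Gly-CCC were tRF-16-Q1Q89PE at 428 CPM, tRF-17-Q1Q89PP at 456, tRF-20-Q1Q89P9L at 1498, tRF-21-Q1Q89P9LE at 226, tRF-22-Q1Q89P9L5 at 354 and tRF-24-Q1Q89P9LJI at 157. Beyond Gly-CCC, tRF-22-P4R8YP9LL stood at 94.8 CPM and tRF-18-86J8WPD4 at 519.

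At month 3 PA8003 was high in the Glu-TTC sum at 284 CPM, in tRF-18-86J8WPD4 at 248, in tRF-19-79MP9PJZ at 77.0 and in tRF-18-79MP9P04 at 412 CPM, and PA8873 in tRF-24-Q1Q89P9LJI at 39.7. At month 6 PA8001 was high in tRF-18-79MP9P04 at 222 CPM, tRF-19-79MP9PJZ at 68.1 and tRF-19-79MP9P1Z at 3.92, and low in tRF-22-P4R8YP9LL at 1.78. At month 9 PA8835 was high in the very short share at 0.317% and in tRF-18-79MP9P04 at 211 CPM, and PA8003 in tRF-16-79MP9PD at 19.98. At month 0 the high values were 9.55 CPM of tRF-24-87R8WP9NEX in PA8914, 10.8 of tRF-22-79MP9PMNI in PA8003 and 22.4 of tRF-17-79MP9PP in PA8915. What set these libraries apart was not tested.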

How the results depend on the processing

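Counts of called members depended on which libraries were kept. The PA8001 and PA8003 libraries of month 15 had the highest very short shares of that month, and no other pair was left out for comparison. Leaving out animal PA8915 or PA8914 at every month also lowered the calls against month 9, from 15 to 6 and 8. With the PA8001 and PA8003 libraries both left out, calls fell to 0 against months 6 and 9, in the joint test and in every comparison of sums; the Gly-GCC sum against month 0 was then 0.62. Leaving out only that of PA8001 gave 4 calls against month 9, 1 in the joint test, 0, 1 and 1 called sums against months 0, 6 and 9, and a Gly-GCC value of 0.98. Leaving out only that of PA8003 gave 6 calls against month 9, 0 in the joint test, 0 called sums against month 0, and 1.17. With the month 0 library of PA8001 left out, 5 sums were called against month 6. Without a filter on low counts 4 and 5 members were called against months 6 and 9; with the filter given the design matrix 5 against month 9 and 3 jointly. DESeq2 called 3, 2 and 6 against months 0, 3 and 9, and 13 jointly. Library totals alone left 1 called sum against month 9.

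Pairing by animal also changed the calls. With no replicate block, 3 members were called against month 3, where the main fit called 0. Jointly 11 were called, of which 4 were among the 6 of the main fit. Against months 6 and 9, 18 and 18 were called, of which 16 and 13 were also called in the main fit. Called sums were then 2 and 1 against months 0 and 3.

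With each animal left out in turn, calls ranged from 0 to 1 against month 0, 9 to 21 against month 6, 3 to 15 against month 9 and 0 to 8 jointly; called sums ranged from 0 to 1 against month 0 and 1 to 3 against month 9, and the Gly-GCC sum from 0.98 to 1.61.

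Few signs turned, none of a called value. Against month 0 with both libraries left out, tRF-16-Q1Q89PE was -0.0230, tRF-17-Q1Q89PP -0.0380, tRF-18-Q1Q89P04 -0.24 and the Gly-CCC sum -0.11. With each animal left out in turn, tRF-18-Q1Q89P04 ranged from -0.0348 without PA8003 to 2.49 without PA8872, the Glu-CTC sum from -0.0590 without PA8003 to 0.54 without PA8835, and the month 3 value of tRF-16-79MP9PD from -0.0307 without PA8873 to 0.89 without PA8915. Without only the month 15 library of PA8003, tRF-18-Q1Q89P04 was -0.0616. Scaling by library totals moved the median of all fragments by 0.12 and 0.13 against months 3 and 9, and the share called higher among all called fragments to 97.9 and 77.4%, beside 64.7 and 59.4%; called members were higher under every scaling. All fragments called against month 0 were then 5 higher and 0 lower, beside 54 and 4, and against month 3 46 and 1, beside 176 and 96; with DESeq2 size factors they were 44 and 3, and 166 and 41. The causes were not tested. Rare members, most of the 353, were beyond the depth.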
